A study of Mus musculus with 2 samples.

Results

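The 9 digestive proteases described here are those of the exocrine pancreas: the trypsinogens Prss2 and Try4, the chymotrypsinogens Ctrb1 and Ctrc, the elastases Cela1, Cela2a and Cela3b, and the carboxypeptidases Cpa1 and Cpb1. The rule that set them names a gene family and uses no measured value. Of the 9, 8 are among the 16787 genes that could be named on the array, all but Try4. Probes were taken where their RefSeq accession, or the current or older symbol in their description, led to one of the 9 genes. That gave 10 probes, 1 per gene except for Cela1, which had 2. The Try4 probe carries the name of Prss3, and its accession list also holds Prss1, so it reads these trypsinogens together and Try4 has no probe of its own.

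The study compared Glis3zf/zf mouse pancreas, homozygous for a mutant Glis3 allele and also called Glis3KO in the labels, with wild-type pancreas, both at postnatal day 3. Glis3 encodes a zinc finger transcription factor of the pancreas, and the series asks about its part in beta cell development. Each genotype is a pool of RNA from 2 pups. Labelling started from 500 ng of total RNA, and Agilent 2-colour arrays of the whole mouse genome received 750 ng of labelled cRNA per dye for 17 hours. The same 2 pools were run on 2 arrays: the first carried the mutant in Cy5 and the wild type in Cy3, and the second carried the mutant in Cy3 and the wild type in Cy5. Each genotype is therefore 1 sample read on 2 arrays, the spread between arrays is technical, and no test between genotypes can be made. Neither the strain nor the design of the allele is given in the labels.

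Acinar cells of the pancreas make these enzymes as inactive zymogens, store them in zymogen granules and release them into the gut. There enteropeptidase turns trypsinogen into trypsin, and trypsin activates the others. Trypsin cuts after basic residues, chymotrypsin after large aromatic ones and elastase after small ones, and the carboxypeptidases remove residues from the carboxyl end. Their transcripts are among the most abundant of the acinar cell, and their genes are driven by the acinar complex PTF1, built from Ptf1a, a class A bHLH partner and Rbpjl or Rbpj, together with factors such as Nr5a2 and Bhlha15.

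For 8 of the 9 proteases the spots were at the top of the scanner's range in both genotypes, so that neither genotype read below the ceiling and a difference above it could not be measured. Only the elastase gene Cela1 gave a ratio. It read slightly lower in the mutant, with a mean log2 ratio of mutant over wild type of -0.22 (SD 0.10 over the 2 arrays), and did not reach 2-fold. Among the other acinar genes, Ctrl, a chymotrypsin-like protease, was lower by more than 2-fold, and Gp2, a membrane protein of the zymogen granule, was higher by more than 2-fold. Rbpjl had a mean log2 ratio of -0.85 and Klk1, a tissue kallikrein, one of 0.73, and neither passed the rule of size.

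Of the 10 probes, 8 were saturated in all 4 readings, that is in both genotypes on both arrays, and these 8 were the probes of Prss2, Try4, Ctrb1, Ctrc, Cela2a, Cela3b, Cpa1 and Cpb1. The saturation was complete. All 478 of 478 pixels were saturated in the mutant readings of these probes, and all 478 of 478 in the wild-type readings, with 29 to 32 pixels per spot. Mean spot signals of the mutant lay between 65328.3 and 65328.8 on the first array and between 65292.6 and 65293.2 on the second. Those of the wild type lay between 65292.6 and 65293.4 on the first array and between 65328.3 and 65328.7 on the second. The values followed the dye, with Cy5 slightly above Cy3, and not the genotype.

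For the trypsinogen Prss2, mean signals were 65328.5 and 65292.9 in the mutant and 65293.1 and 65328.7 in the wild type on the 2 arrays in turn. For the carboxypeptidase Cpa1 they were 65328.4 and 65292.9 in the mutant and 65292.6 and 65328.6 in the wild type. For Ctrb1, the main chymotrypsinogen, they were 65328.7 and 65293.0 in the mutant and 65293.0 and 65328.6 in the wild type. Each gene thus gave the same pair of numbers, which is the ceiling of each dye.

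**Figure D1:**
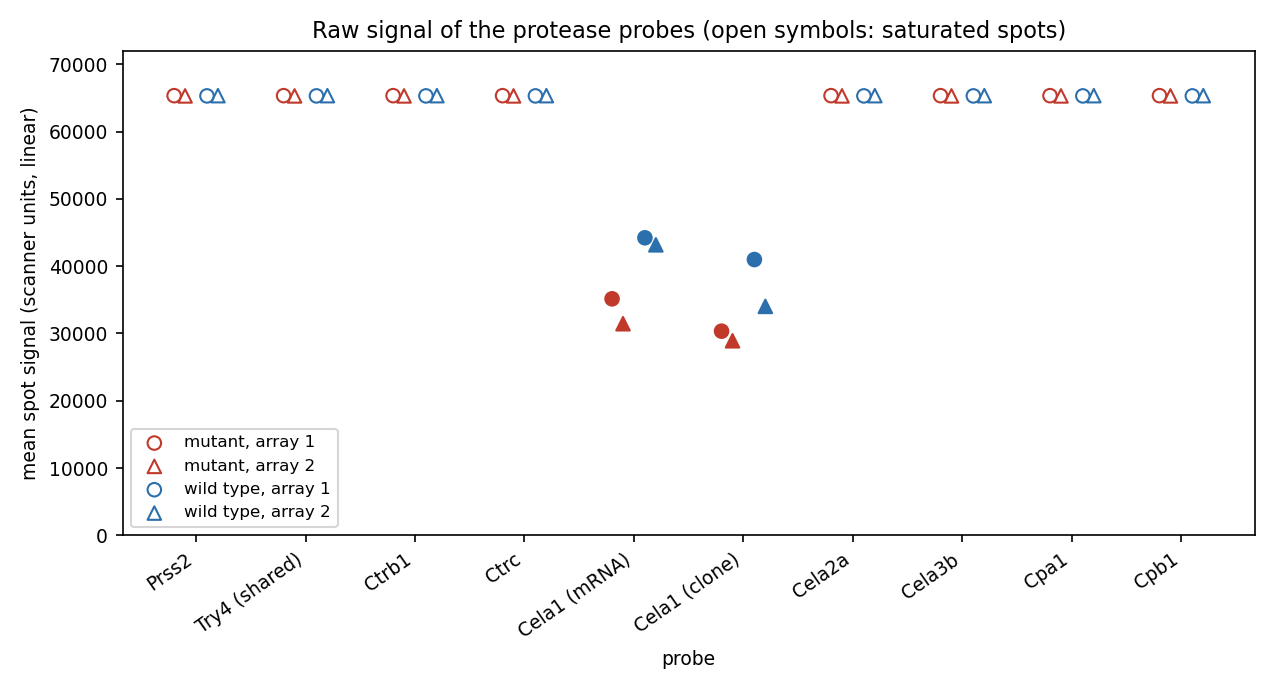
Mean spot signal (scanner units, linear axis from 0) of the 10 protease probes, with the mutant in red left of the wild type in blue, circles for the first array and triangles for the second. Open symbols are saturated spots: 8 probes sit at the ceiling in all 4 readings, and the 2 Cela1 probes, filled, lie between 28913 and 44213.

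A log ratio can still be computed for a saturated spot, and all 8 probes then gave one and the same value. After loess it was 0.00 on the first array and 0.33 on the second, and the spread between the 8 probes was below 0.001 on either array. The authors' deposited table lists a log2 ratio of mutant over wild type of -0.05 and 0.34 for these probes, again the same for each. All 23 probes on the array that were saturated in every reading had this pair of values in the scanner software's ratios, between -0.0453 and -0.0451 on the first array and between 0.3377 and 0.3379 on the second. These numbers are the ceilings of the 2 dyes after dye normalisation and were not taken as measurements of the genes. With both genotypes saturated there is no bound on a fold either. In neither genotype did any of the 8 probes read below the ceiling on either array, and a difference between genotypes that stays above it was not detectable.

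Most of the fully saturated spots read pancreatic enzymes. Of the 41174 probes for genes, 23 were saturated in all 4 readings. The 8 probes just described were among them, as were probes of the trypsinogens Prss3 and Try5 and 6 probes of other zymogen granule enzymes and proteins. A further 2 read ribosomal proteins (Rps18 and Rplp0), 1 read 2210010C04Rik and 3 carry no gene name here. The granule genes were Amy1, Pnliprp1, Cel, Clps and Sycn, which encode an amylase, a lipase-related protein, the carboxyl ester lipase, colipase and syncollin, with 1 further amylase probe. Another 31 probes were saturated in 1 to 3 readings.

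Cela1 was read by 2 probes, and neither had a saturated pixel in any reading. The probe for its mRNA (A_52_P578634) lies in the file at chr15:100742122-100742181, and the second (A_51_P219970), designed on a pancreas cDNA clone whose name the gene table lists as an older symbol of Cela1, at chr15:100742663-100742722. No source used here names the genome build of these file coordinates. The mRNA probe had mean signals of 35149 and 31448 in the mutant, against 44213 and 43167 in the wild type. The clone probe had 30343 and 28913 in the mutant, against 40983 and 34025 in the wild type. On the raw scale the mutant was below the wild type in all 4 pairs, but the channels of an array differ in overall brightness, so the ratios need the dye normalisation.

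After loess, the mRNA probe had log2 ratios of -0.29 on the first array and -0.15 on the second, a mean of -0.22, or 1.16-fold lower in the mutant. The clone probe had -0.38 and 0.07, a mean of -0.15. The 2 arrays thus had the same sign for the mRNA probe and opposite signs for the clone probe. A gene was called by size alone, where its mean change reached 2-fold and each of the 2 arrays alone showed 1.5-fold or more the same way. Cela1 did not meet this rule, so 0 of the 1 protease with a ratio was called, beside 0.231% of 16485 measured genes called higher and 0.152% called lower. One gene is too few to read against those shares.

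Cela1 was also set beside other bright, unsaturated genes, because dye effects depend on brightness. Unsaturated here means not flagged: the largest mean signal in the class was 65219.9, close to the ceiling, so some spots may be clipped in part. The 50 genes with mean signals of at least 20000 in every reading had a median log2 ratio of 0.24 on the first array and -0.10 on the second. The loess fit therefore left a difference of this size between the dye orientations at this brightness, and 29 of the 50 genes had opposite signs on the 2 arrays. The difference between arrays, divided by 2, had an SD of 0.13 in this class, against 0.08 over all genes that were not called. The mean over both orientations, in which a dye effect cancels, had a median of 0.09, with the 5th percentile at -0.21 and the 95th at 0.33. Cela1 at -0.22 was the third lowest of the 50, 0.30 below the class median. In all measured genes 6.73% were at or below that ratio. Because the floor of 20000 applies to every reading, it cuts both tails of the class. It leaves out genes that were bright in the wild type and dimmer in the mutant, such as Gcg at -1.21. The reverse also holds, as for Klk1 at 0.73. The percentiles and the rank of Cela1 in the class therefore depend on the floor. These ranks describe 2 pools and are not a test, and the class was set with the data in view.

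**Figure D2:**
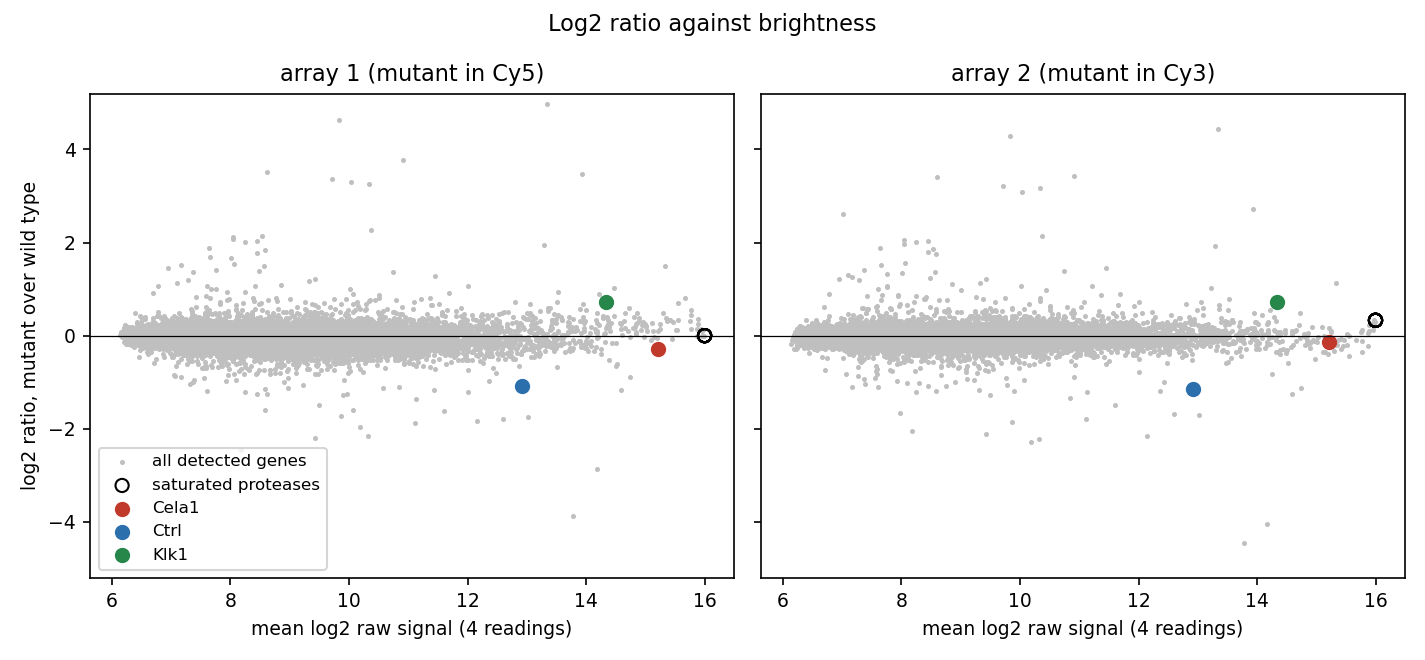
Log2 ratio of mutant over wild type (vertical axis) against the mean log2 raw signal of the 4 readings (horizontal axis) for detected genes on each array. The saturated proteases (open circles) fall on 1 point per array, at 0.00 and 0.33, whereas Cela1, Ctrl and Klk1 lie below the ceiling.

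Among those bright genes 1 was called, 1810009J06Rik, to which the files and the gene table give no function. It is named after its values were seen, for its place. In the gene table it lies on chromosome 6, separated from Try4 by the coding genes Gm2663 and 2210010C04Rik. Its probe had mean signals of 65145 and 56850 in the mutant, against 23910 and 32530 in the wild type, and log2 ratios of 1.49 and 1.12, a mean of 1.31. The mutant spot of the first array had 14 of 28 pixels saturated although it was not flagged, and its ratio there is a lower value than an unclipped spot would give. On the second array 0 of 28 pixels of the mutant spot were saturated. Of its neighbour 2210010C04Rik, 1 probe was saturated in every reading and the other in all but the wild-type reading of the first array.

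Beyond the 9 genes, 2 of 9 further pancreatic proteases could be measured, and 1 of these was called lower, beside 0.152% of all measured genes. Ctrl had mean signals of 5503 and 4315 in the mutant, against 13040 and 11431 in the wild type, and the mutant was the lower on both arrays. Its log2 ratios were -1.08 and -1.15, a mean of -1.11. Klk1 had mean signals of 27633 and 22322 in the mutant, against 17884 and 16412 in the wild type. Its log2 ratios were 0.72 and 0.73, a mean of 0.73, and its second probe averaged 0.54. These were above the spread between arrays but short of the 2-fold rule. Prss3 and Try5 were saturated in both genotypes, and 4 of the list had no probe named to them alone. The median of the 2 measured genes was -0.19, beside 0.00 over all genes.

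None of the 11 measured inhibitors and activators of proteases was called, beside 0.231% of all measured genes called higher and 0.152% called lower. The median log2 ratio of the 11 was 0.19. Of the 11, 9 read above 0 on both arrays and 1 below 0 on both, beside 32.4% above and 30.5% below of all measured genes. Some of the 9 were dim, with mean signals down to 71.9, where the median over all probes was at least 205.1. The signs of such dim genes carry little weight. The highest of the 11 was Serpini2, a serpin of the pancreas also called pancpin. Its mean signals were 11796 and 11571 in the mutant, against 9082 and 6821 in the wild type. Its log2 ratios were 0.53 and 1.03, a mean of 0.78. The lowest was Tmprss15, which encodes enteropeptidase and is a gene of the duodenum, at -0.04. The trypsin inhibitor Spink1 had no probe named to it here.

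Other zymogen granule genes differed widely among themselves. Of 9 measured, 1 was called higher and 0 lower, beside 0.231% and 0.152% of all measured genes. The median of the 9 was 0.09. Gp2 had mean signals of 19916 and 16459 in the mutant, against 5773 and 5216 in the wild type. Its log2 ratios were 1.94 and 1.92, a mean of 1.93. The lowest was Pla2g1b, the secreted pancreatic phospholipase, with mean signals of 685.4 and 565.8 in the mutant, against 1244 and 1277 in the wild type. Its log2 ratios were -0.58 and -1.05, a mean of -0.82, which misses the rule. Amy1, Pnliprp1, Cel, Clps and Sycn were saturated in both genotypes, and Zg16, a granule lectin, in 3 of its 4 readings, so that its ratio is not a full measurement. A second Amy1 probe read 58805 in the wild type on the first array, below the ceiling, and was saturated in its other readings.

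**Figure D3:**
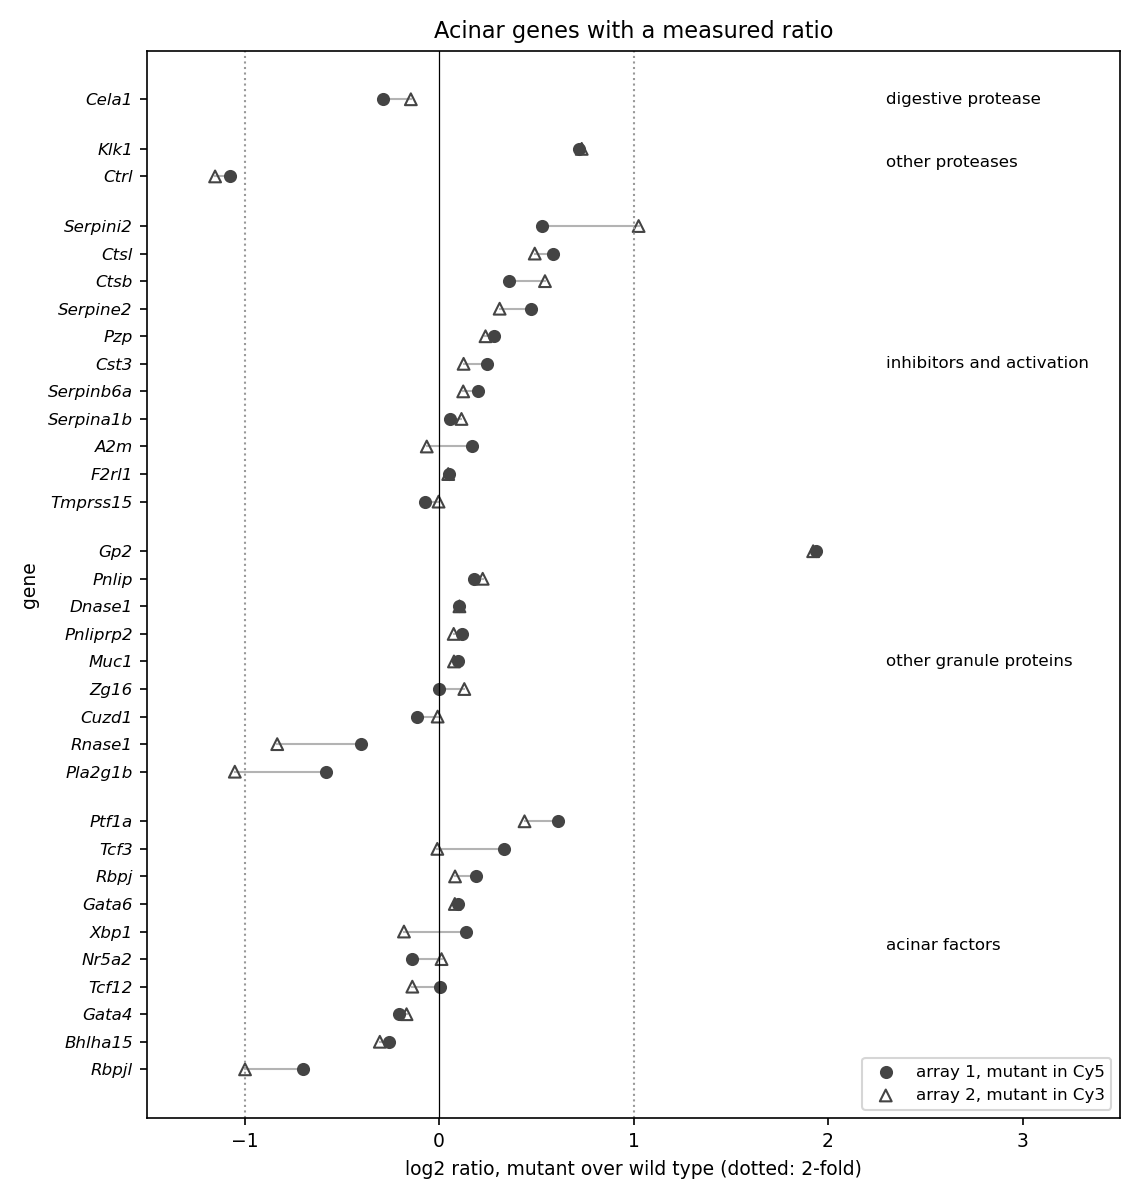
Log2 ratio of mutant over wild type of the measured genes in the protease, inhibitor and activation, granule and acinar factor lists. Not all of the inhibitor and activation genes are acinar genes. The first array is shown as filled circles and the second as open triangles, with dotted lines at 2-fold. Cela1 lies just left of 0, Ctrl at -1.11 and Gp2 at 1.93 on average, and most other genes lie within 2-fold.

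Of the 10 acinar transcription factors 0 were called, beside 0.231% of all measured genes called higher and 0.152% called lower. The median of the 10 was -0.04. The lowest was Rbpjl, the acinar-specific subunit of PTF1. It had mean signals of 4283 and 3353 in the mutant, against 8000 and 7912 in the wild type, and log2 ratios of -0.70 and -0.998, a mean of -0.85. The highest was Ptf1a, its bHLH subunit, with mean signals of 858.4 and 734.7 in the mutant, against 687.2 and 588.5 in the wild type. Its log2 ratios were 0.61 and 0.44, a mean of 0.52. With a threshold of 1.5-fold as the mean, Rbpjl was the 1 factor called lower and none was called higher, beside 0.406% and 0.455% of all genes.

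Of all measured genes 32.4% were above 0 and 30.5% below 0 on both arrays, while 0.231% were called higher and 0.152% lower. Of 12 measured genes of acinar secretion 0 were called, and their median was -0.05, with 3 above 0 and 7 below 0 on both arrays. The highest was the water channel gene Aqp8 at 0.45, and the lowest was Itpr3, a calcium channel of the endoplasmic reticulum that acts in zymogen release, at -0.44. Among 20 serine proteases and carboxypeptidases of gut, mast cells, neutrophils and other tissues, 0 were called and the median was 0.07, with 13 above 0 and 1 below 0 on both arrays. The highest was Cma1, a mast cell chymase, at 0.58, and the lowest was Cpe, the carboxypeptidase of prohormone processing in endocrine cells, at -0.49. Some of the 13 genes above 0 were dim, with mean signals down to 79.4, and their signs carry little weight.

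The pools also differed in marker transcripts of other cell types. Of 8 skeletal muscle markers 7 were called higher in the mutant, with summed signals of 20250 and 18311 in the mutant, against 2893 and 2388 in the wild type. Of 8 islet hormone and granule markers 7 were called lower, with summed signals of 56637 and 42733 in the mutant, against 231716 and 225355 in the wild type. The wild-type sums are clipped, since the wild-type spots of Ins2 were saturated on either array and that of Ins1 on the second. None of the duct, intestine, liver, blood and immune, or mesenchyme and endothelium markers was called. Over all measured genes 0.231% were called higher and 0.152% lower. Of the 6 acinar markers with a named probe, Cel and Clps were saturated in both genotypes and 0 of the 4 measured were called. The part of these shifts in the ratios of Cela1, Ctrl, Gp2 and the other acinar genes was not tested, and in whole pancreas fewer cells of a type and less RNA per cell cannot be told apart. Glis3 itself had 1 probe, with log2 ratios of -0.02 and 0.01. Its mean signals were low, at 114.9 and 127.8 in the mutant, against 155.3 and 115.4 in the wild type. The median over all probes was 205.1 or more in every reading, so a ratio near 0 does not show an unchanged transcript. No source used here says whether the probe reads the altered part of the allele.

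Promoter windows of the 250 bases before the annotated start were read from RefSeq, build GRCm38.p6, for the 8 of 9 genes that the table holds. They are shown for Cela1, the protease with a ratio, for Ctrb1, which shares with it a composite site, and for Prss2, a trypsinogen without one. Capitals mark the TATA box TATAAA, the GATA motif GATAAG and a composite, which is CANNTG followed after 4 to 6 further bases by the motif TTTCCC, each searched on both strands. The composite has the form of the PTF1 site, with a bHLH box and an RBPJ-type site, and so contains the 2 single motifs counted below. The windows are chr15:100687921-100688170 on the minus strand for Cela1, chr8:111691011-111691260 on the minus strand for Ctrb1 and chr6:41521526-41521775 on the plus strand for Prss2, each printed 5′ to 3′ in the direction of the gene.
Cela1: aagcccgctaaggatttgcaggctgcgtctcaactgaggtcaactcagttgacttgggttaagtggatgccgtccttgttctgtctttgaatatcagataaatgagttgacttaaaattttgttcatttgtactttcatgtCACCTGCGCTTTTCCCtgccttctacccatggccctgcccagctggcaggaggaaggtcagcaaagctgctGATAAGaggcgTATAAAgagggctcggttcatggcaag
Ctrb1: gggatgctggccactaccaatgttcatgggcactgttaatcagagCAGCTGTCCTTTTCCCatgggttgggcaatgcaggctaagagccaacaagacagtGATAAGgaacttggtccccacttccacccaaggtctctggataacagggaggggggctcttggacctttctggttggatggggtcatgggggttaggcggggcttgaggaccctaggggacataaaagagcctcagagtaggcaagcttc
Prss2: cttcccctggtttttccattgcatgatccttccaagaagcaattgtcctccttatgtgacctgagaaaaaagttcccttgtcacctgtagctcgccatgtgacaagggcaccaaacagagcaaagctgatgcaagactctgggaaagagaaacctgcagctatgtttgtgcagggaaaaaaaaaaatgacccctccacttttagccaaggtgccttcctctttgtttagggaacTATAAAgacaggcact

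Of the 8 promoters, 2 held the composite, those of Cela1 and Ctrb1, beside 0.271% of 32851 promoter windows of the same length. In Cela1 the composite begins 109 bases before the start, GATAAG 38 bases and TATAAA 27 bases before it. In Ctrb1 the composite begins 205 bases before the start and GATAAG 150 bases. CANNTG alone was in 8 of 8, beside 66.2% of all windows, and TTTCCC in 5 of 8, beside 21.9%. GATAAG was in 5 of 8, beside 6.55%, and TATAAA in 3 of 8 (Cela1, Prss2 and Try4), beside 12.4%. No GATAAG overlapped a TATAAA, and no TTTCCC overlapped a CANNTG. These are matches of letters. The arrays give a ratio for Cela1 alone of the 8, so they do not connect the motifs with a response.

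The genes lie in part side by side. Prss2 and Try4 are at chr6:41521776-41525079 and chr6:41302272-41305533 in GRCm38.p6, in the trypsinogen cluster that also holds Try5, Prss3 and Prss1. Cpa1 is at chr6:30639218-30645361. Cela2a (chr4:141814954-141826005) and Ctrc (chr4:141838239-141846287) are neighbours, and RefSeq classes Ctrc as a transcribed pseudogene in this reference strain. Its probe was nevertheless saturated in both genotypes. Near-identical trypsinogens can share cRNA on a probe, so the signals of Prss2, Prss3 and Try5 are also uncertain as to which member they read.

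The Cela1 ratio was also computed in other ways. The mean of the mRNA probe lay between -0.24 and -0.22 under the 7 ways of background correction and normalisation drawn for it, and that of the clone probe between -0.18 and -0.15. The order of the arrays depended on the processing: with median centring in place of loess the mRNA probe had -0.07 and -0.41, and the clone probe -0.18 and -0.19.

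**Figure D4:**
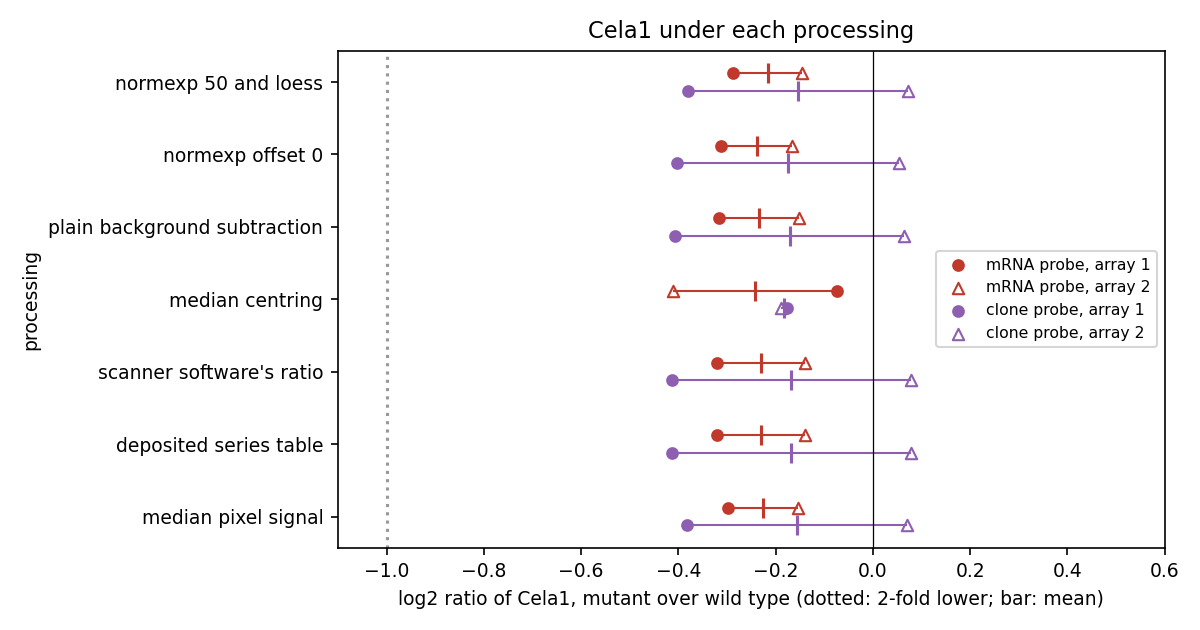
Log2 ratio of mutant over wild type of the 2 Cela1 probes under each processing, with circles for the first array, triangles for the second, bars for their mean and a dotted line at 2-fold lower. Every mean lies left of 0 and far from 2-fold, while the single arrays lie between -0.41 and 0.08.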

How the data were processed

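The members and gene lists were chosen with earlier results of these data known. Per the file headers, the deposited files of each array give every spot's mean intensity and its local background's median intensity, per dye and on a linear scale, with flags for saturated and outlying spots. Per the file headers, they also give a log10 ratio, Cy5 over Cy3, of background-subtracted and dye-normalised signals from the scanner software. The software was Feature Extraction, version 7.5 per the submitters' processing notes and module 8.5.1.1 per the file headers. The deposited series table holds log2 values, whose scale, centring and direction were settled by comparison: turned to mutant over wild type, the software's ratios match them to 0.002 in 99.99% and 99.98% of probes, and each column has a median of 0.

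Intensities were background-corrected by normexp with an offset of 50 and then loess-normalised array by array, giving control spots no weight (limma 3.58.1 and R 4.3.3, reading with version 1.17.8 of data.table). These steps were tested on simulated data of 41534 spots and 2 dye-swapped arrays, with 200 spots changed. The slope of estimate on truth was 0.994 over the 46 brighter changed spots. Starting signals in the simulation were capped below those of the protease probes, and saturation was not simulated. The simulation therefore does not show how the steps act there. In the real data the 50 bright unsaturated genes kept medians of 0.24 and -0.10 on the 2 arrays after loess. Spots flagged as outliers were left out (15 and 53), saturated spots were kept, and mutant over wild type was averaged over the arrays. The brightest unsaturated probe stood for a gene. Of 16787 named genes, 16530 had a probe flagged well above background on both arrays in 1 or both genotypes. The flag removed few genes, so dim ones stay among these 16530. Of these, 16485 were not saturated in both genotypes. Between 26 and 48 probes per reading were saturated. Probes were named through the RefSeq table of GRCm38.p6 (Python 3.11.15, numpy 2.4.6, pandas 2.3.3, matplotlib 3.10.9), 22072 by accession, 135 by another accession, 605 by symbol and 486 by an older symbol, leaving 17876 unnamed. The number of arrays limits the precision.

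In each other list the text names the genes past the rule of size, the highest and lowest measured, and those saturated in both genotypes, except 1 gene that is not reported here. Alternatives were other background corrections and normalisations, the software's ratio, the series table, median pixels, the spot and probe filters, the thresholds and each array alone.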

Additional observations from a re-analysis of the deposited data

How the results depend on the processing

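With 1 pool per genotype no test was possible, and at the ceiling no setting can recover a ratio, so the count of called proteases, 0 in 14 of 14 alternatives, rests on Cela1 alone. The Cela1 ratio lay between -0.24 and -0.23 under the 6 other corrections and normalisations, at -0.15 with the clone probe, added after seeing the data, and between -0.29 and -0.15 with 1 array left out. The other 4 alternatives do not act on its probe and leave it at -0.22. The number of genes called lower, 25, was 42 with offset 0, 41 with plain subtraction, and 44 with the software's ratio and with the series table. It was 18 with the median over unsaturated probes. The number called higher, 38, was 49 with offset 0, 46 with plain subtraction, and 50 with the software's ratio and with the series table. At 1.5-fold as the mean 75 genes were higher and 67 lower, and at 3-fold 19 and 11. With 1 array left out 42 genes were higher on either array and 32 to 33 lower. The median of the gut and immune protease list, 0.07, was 0.12 with offset 0, 0.11 with plain subtraction, the software's ratio and the series table, and 0.10 and 0.13 on single arrays. The secretion median, -0.05, was -0.11 with median centring, -0.0767 with the software's ratio, -0.0766 with the series table, and between -0.0773 and -0.039 with 1 array left out. The median of the other proteases was -0.24 with median centring and with the median over unsaturated probes, and that of the granule genes was 0.0399 with median centring. The median of the transcription factors changed sign between the single arrays, at -0.0735 and 0.0504. The causes were not tested. No paired analysis was possible because the 2 arrays hold the same 2 pools.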
